A study of Mus musculus with 81 samples.

Results

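The genes described here encode the RNA polymerase I subunits and nucleolar factors that make ribosomal RNA and assemble it into ribosomal subunits. They were chosen by name and not by a rule on any measured value, but with earlier results of these data known. In all, 43 genes were listed, and 42 of them had a row among the 24391 gene symbols of the deposited count table. Noc2l had none. The 42 genes fall into 7 roles, with 3 in RNA polymerase I, 3 in the box C/D and 3 in the box H/ACA small nucleolar ribonucleoproteins, 6 general nucleolar factors, 11 members of the small subunit processome, 4 late 40S assembly factors and 12 60S assembly factors. All 42 passed the filter on low counts in each of 5 experiments.

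All 5 experiments used RNA sequencing of a mouse hybridoma mature T cell line, an established line, and asked how RBPJ, the DNA-binding factor of the Notch pathway, and activated Notch change gene expression. In the depletion experiment, 2 lines edited with CRISPR/Cas9 against Rbpj (2-12 and 2-14) were set against a control line, with 2 libraries each. In the NICD1-ER experiment, cells infected with NICD1-ER, a Notch1 intracellular domain controlled by tamoxifen, received 1 µM 4-hydroxytamoxifen (4-OHT) for 4, 8 or 24 h, or ethanol for 24 h. At 4 and 8 h, libraries 1 and 2 differed by less than the sampling noise while the third did not, so they were combined, and each of the 4 groups held 2 samples. The 2 libraries at 24 h also differed by less than the sampling noise and were kept apart, with the values for their sum given beside the 24 h results. In the KYOT2 experiment, cells were infected with GFP alone, with GFP-KYOT2 WT, where KYOT2 is a protein that binds RBPJ, or with GFP-KYOT2 WWAA, whose interaction with RBPJ is defective, with 3 libraries each. In the GSI experiment, cells received 20 µg/ml of the gamma-secretase inhibitor DAPT for 24 h or DMSO, with 2 libraries each. In the BioNICD1 experiment, cells of the control or of an RBPJ-depleted background were infected with BioNICD1 WT, which supplies the Notch1 intracellular domain, or with its control Biocontrol, with 3 libraries in each of the 4 groups. NICD1-ER, KYOT2 and BioNICD1 were all introduced by infection, so their levels are not those of the cell's own genes. The labels do not say whether an edited line is a single clone, which line the depleted cells of the BioNICD1 experiment came from, or whether replicates were separate cultures, so p-values measure only the spread between these libraries, which may be technical.

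Ribosome production starts in the nucleolus, where RNA polymerase I transcribes one long precursor of ribosomal RNA. Small nucleolar ribonucleoproteins modify that precursor, the small subunit processome folds and cleaves it, and separate sets of factors carry the 40S and 60S particles towards the cytoplasm. Genes for these factors are known as targets of MYC, which binds the E-box CACGTG, and Myc is itself a known Notch target in T cell leukaemia.

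Because MYC and RBPJ each bind a known short sequence, the promoters were searched for both, on either strand, a feature that the choice of genes did not use, and the windows of the genes that hold an E-box are shown. RefSeq promoters of build GRCm38.p6, each from 250 bases before to 50 after the gene start, were used. They were found for 37 of the 43 genes, which gave 41 promoters. The other 6, Fbl, Npm1, Tbl3, Rrp12, Bop1 and Rrs1, had none and were not searched. CACGTG was present in 8 of the 41 promoters (19.5%), against 7.15% of all 32851 promoters and 7.84% of the 21263 promoters of protein-coding genes. The RBPJ motif TGGGAA, read as TTCCCA on the other strand, was present in 13 of the 41 (31.7%), against 25.6% of all promoters and 24.5% of those of protein-coding genes. Matches of the 2 motifs were counted separately, overlapping or not, and 3 genes held both while 19 held neither. In the windows of 30 bases that follow, written 5′ to 3′ on the gene's strand, the capitals mark the E-box.
Mybbp1a: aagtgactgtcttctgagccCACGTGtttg
Utp20: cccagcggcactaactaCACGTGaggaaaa
Utp18: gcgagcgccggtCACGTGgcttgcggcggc
Wdr43: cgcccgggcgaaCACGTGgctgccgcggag
Tsr1: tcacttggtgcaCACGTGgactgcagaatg
Ltv1: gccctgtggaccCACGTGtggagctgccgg
Pes1: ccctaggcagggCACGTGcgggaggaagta
Nop2: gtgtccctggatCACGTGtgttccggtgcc
These lie at chr11:72441347-72441376 on the plus strand (Mybbp1a), chr10:88826765-88826794 on the minus strand (Utp20), chr11:93885769-93885798 on the minus strand (Utp18), chr17:71616220-71616249 on the plus strand (Wdr43), chr11:74898092-74898121 on the plus strand (Tsr1), chr10:13193092-13193121 on the minus strand (Ltv1), chr11:3963965-3963994 on the plus strand (Pes1) and chr6:125131811-125131840 on the plus strand (Nop2). The E-box lay after the gene start in 6 of the 8 and before it in Utp18 and Nop2. Polr1b, called in several experiments described next, held no E-box but held the RBPJ motif 15 bases before its start, at chr2:129100969-129100998 on the plus strand, where the capitals mark the motif.
Polr1b: gaggaactacatTTCCCAgaaggccacggg
Polr1b is among the 13 genes that held the RBPJ motif, and its window is shown after its calls were seen. Polr1c and Nop58, called in no comparison, also held the motif, and Nop16 held it 15 bases before its start. These matches describe letters in a window and not binding.

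Libraries held 2377030 to 14244200 counts. The 42 genes together took 0.459% to 0.757% of the counts in the first 4 experiments named above and 1.51% to 2.78% in the BioNICD1 experiment, so levels are compared only within an experiment. T cell markers were present throughout: of 8 markers, 7 or 8 reached 1 CPM (the count scaled to a common library size) in every experiment. At most 3 of 5 myeloid, 1 of 3 erythroid and 0 of 4 fibroblast markers did so, with Cd68 the highest of them at 85.4 CPM. Rbpj, the edited gene, stood at 182 and 133 CPM in the control line against 44.2 and 31.4 in line 2-12 and 59.6 and 41.8 in line 2-14, and in the BioNICD1 experiment all 6 depleted libraries (18.7 to 27.5 CPM) lay below all 6 control libraries (83.9 to 94.1 CPM). In whole-culture RNA, fewer cells of a kind and less RNA per cell cannot be told apart. Levels are CPM scaled by trimmed mean of M-values (TMM) normalisation, given as mean ± SD, and "rose" or "fell" is used only where edgeR's quasi-likelihood test gave a Benjamini-Hochberg adjusted p below 0.05 over all genes tested. Of the 42 genes, 37 passed in 1 or more of 17 comparisons and 5 in none, where 74.2% of all genes tested in every experiment passed in 1 or more.

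**Figure D1:**
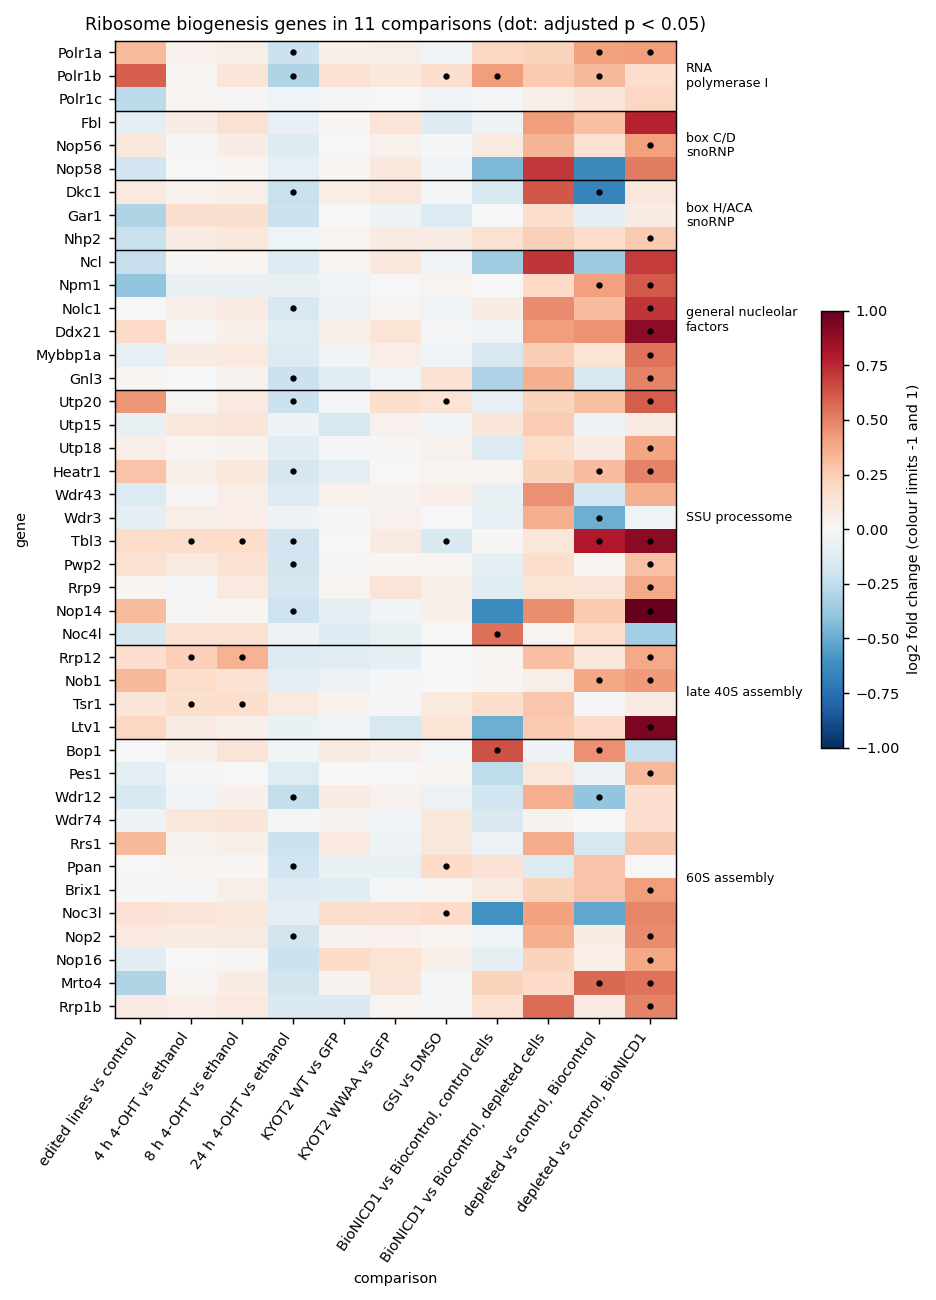
Log2 fold changes of the 42 genes (rows, grouped by role) in 11 comparisons (columns). Colour runs from blue (lower) to red (higher) and stops at -1 and 1, which Nop14 exceeds at 1.36 in the last column, and a dot marks an adjusted p below 0.05. Dots are densest in the 24 h 4-OHT column, where all 13 are lower, and in the last column, where all 24 are higher.

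In the NICD1-ER experiment, the genes that passed the test fell at 24 h of 4-OHT and rose at 4 and 8 h, by small amounts, and the counts at 4 and 8 h were near or below the share of all genes. At 24 h of 4-OHT, 13 of the 42 genes fell and none rose, where 10.8% of all genes were called (4.22% lower and 6.59% higher), and 41 of the 42 had a fitted change below 0. The median log2 change of the 42 was -0.13, against -0.01 over all genes tested. The changes were small: the 13 that fell did so by 1.11-fold to 1.23-fold. Against ethanol, 3 genes rose and none fell at 4 h, where 6.25% of all genes were called (3.16% higher and 3.09% lower). The same 3 genes rose and none fell at 8 h, where 10.4% of all genes were called (5.06% higher and 5.31% lower). These 3 comparisons share the ethanol samples.

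The largest change at 24 h was in RNA polymerase I. Polr1b, the second largest subunit of the enzyme, stood at 168 and 174 CPM in ethanol, 173 and 177 at 4 h, 188 and 186 at 8 h, and 141 and 138 at 24 h. Both 24 h samples lay below all 6 others, and both 8 h samples lay above all others. Polr1b fell by 0.30 on the log2 scale at 24 h (SE 0.05, 1.23-fold, edgeR adjusted p = 0.000574). Polr1a, the largest subunit, stood at 246 and 260 CPM in ethanol and 221 and 215 at 24 h, and fell by 0.21 (SE 0.05, edgeR adjusted p = 0.00872). Polr1c, a subunit shared with RNA polymerase III, did not pass the test, with 85.0 ± 3.66 CPM in ethanol and 82.4 ± 2.71 at 24 h (SD, n = 2 each).

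Among the modifying particles, Dkc1, the pseudouridine synthase of the box H/ACA particle, stood at 189 and 184 CPM in ethanol and 161 and 159 at 24 h, with no overlap, and fell by 0.22 (SE 0.05, edgeR adjusted p = 0.00686). None of the 3 box C/D genes passed at 24 h. Fbl, the methyltransferase of that particle, was at 56.7 ± 1.85 CPM in ethanol and 53.4 ± 2.81 at 24 h (SD, n = 2 each), and its scaffold partners Nop56 and Nop58 had 24 h means of 164 and 193 CPM against 179 and 205 in ethanol. Of the 6 general nucleolar factors, 2 fell at 24 h. Gnl3, the GTPase also called nucleostemin, stood at 152 and 142 CPM in ethanol and 127 and 125 at 24 h, and fell by 0.22 (SE 0.06, edgeR adjusted p = 0.0192). Npm1, the abundant histone and ribosome chaperone nucleophosmin, stood at 151 and 140 CPM in ethanol and 134 and 143 at 24 h, and the groups overlapped. Npm1 has near-identical processed pseudogenes, and how the counting shared their reads is not given in the sources used here.

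The small subunit processome held the most genes that fell at 24 h, 5 of its 11. Utp20, a large scaffold protein of that particle, stood at 251 and 268 CPM in ethanol and 233 and 214 at 24 h, and fell by 0.22 (SE 0.06, edgeR adjusted p = 0.0317). Heatr1, needed for both pre-ribosomal RNA transcription and processing, went from 323 and 336 CPM to 292 and 293, and fell by 0.17 (SE 0.05, edgeR adjusted p = 0.0253). Neither gene's 24 h samples overlapped its ethanol samples. In the 60S set, 3 of 12 fell, and Wdr12, the partner of Bop1 and Pes1 in the PeBoW complex, fell furthest, from 91.9 and 92.2 CPM to 79.5 and 76.5 (log2 change -0.24, SE 0.06, edgeR adjusted p = 0.0174). None of the 4 late 40S factors fell against ethanol at 24 h.

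The genes that rose early were Rrp12, Tsr1 and Tbl3, and the first 2 are late 40S factors. Rrp12, an export factor of pre-ribosomal particles, stood at 123 and 124 CPM in ethanol, 147 and 145 at 4 h, 157 and 159 at 8 h, and 114 and 113 at 24 h. None of these groups overlapped another. Its log2 change was 0.24 at 4 h (SE 0.05, edgeR adjusted p = 0.00561) and 0.35 at 8 h (SE 0.05, edgeR adjusted p = 0.000103). Tsr1, a GTPase-like factor that blocks early translation by pre-40S particles, stood at 199 and 193 CPM in ethanol, 219 and 220 at 4 h, 221 and 221 at 8 h, and 209 and 210 at 24 h, and was the only one of the 42 with a 24 h fitted change above 0. Its log2 change was 0.18 at 8 h (SE 0.04, edgeR adjusted p = 0.0159). Tbl3, a WD-repeat protein of the processome, went from 150 and 143 CPM in ethanol to 171 and 160 at 4 h, 168 and 164 at 8 h, and 128 and 128 at 24 h. In edgeR, Tbl3 thus rose at 4 h and 8 h and fell at 24 h against the same ethanol samples. DESeq2 called it at none of these times (DESeq2 adjusted p = 0.680, 0.540 and 0.403 in that order). Over the alternatives run, its log2 change was 0.13 to 0.22 at 4 h, 0.15 to 0.21 at 8 h and -0.22 to -0.16 at 24 h.

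**Figure D2:**
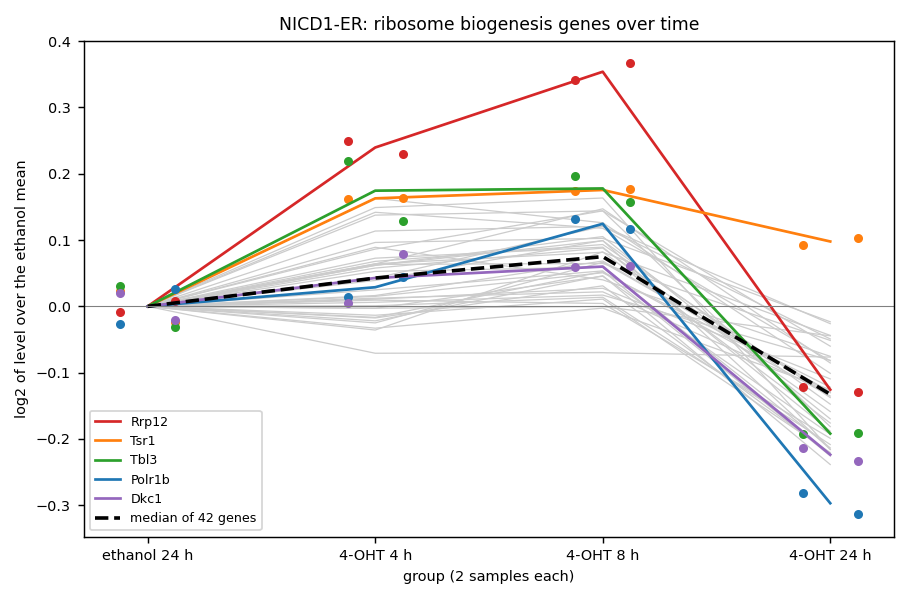
Level of each gene over its ethanol mean (log2, y axis) in the 4 NICD1-ER groups (x axis). Grey lines join group means of the 42 genes, coloured lines and points show 5 genes with both samples of each group, and the dashed line is the median of the 42 at each group. The median line is lowest at 24 h, and Tsr1 alone stays above 0 there.

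The contrast of 24 h with 4 h of 4-OHT does not use the ethanol samples. In it, 23 of the 42 genes were lower at 24 h and none higher, where 13.4% of all genes were called (5.41% lower and 8% higher), and the median log2 difference was -0.21. The fitted difference was below 0 in 41 of the 42, against 5981 of the 11808 genes tested. Both 24 h samples lay below both 4 h samples in 40 of the 42 genes. The group mean was highest at 8 h for 35 of the 42 and lowest at 24 h for 41. Sample order and group means were not counted over all genes, so those numbers have no background. Tbl3 (log2 difference -0.38, SE 0.05), Gar1 (-0.37, SE 0.08), Rrp12 (-0.37, SE 0.05) and Polr1b (-0.32, SE 0.05) differed most. By role, the lower genes were 2 of 3 in RNA polymerase I, none of 3 in box C/D, 2 of 3 in box H/ACA, 3 of 6 general nucleolar factors, 8 of 11 in the processome, 2 of 4 late 40S and 6 of 12 60S factors.

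The number of calls depended on the tool and on single samples. At 4 h it was 1 without ethanol replicate 2 or 3 and 0 without 4 h replicate 1 and 2, and at 8 h it was 1 without ethanol replicate 3, without 8 h replicate 1 and 2 or without 8 h replicate 3. DESeq2 called 0, 1, 1 and 8 of the 42 at 4 h, 8 h, 24 h and 24 h against 4 h, where it called 1.87%, 3.33%, 4.57% and 3.26% of all genes, with 3 of the 42 at an unadjusted p below 0.05 at 4 h. Its count at 24 h against ethanol was thus not above the share of all genes. With the 2 libraries at 24 h summed to 1 sample, a fit chosen after seeing the data that takes the spread from the other groups, 4 of the 13 remained called against ethanol (Polr1a, Polr1b, Dkc1 and Wdr12), where 8.09% of all genes were called, and 14 of the 23 against 4 h, where 8.85% were. At 24 h the count fell to 1 without 24 h replicate 3, to 3 without 24 h replicate 2 and to 5 without ethanol replicate 2, and against 4 h it fell to 10 without 24 h replicate 3, to 12 without 24 h replicate 2 and to 14 without 4 h replicate 1 and 2. Polr1b remained below 0.05 at 24 h in all 10 alternatives run for it.

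Other ribosome biogenesis genes, 98 tested of a list of 99, were lower at 24 h against 4 h in 25 cases and higher in none. Against ethanol at 24 h, 5 of the 98 fell and none rose, with Rcl1 (-0.26) and Nat10 (-0.22) the furthest. Of 12 RNA polymerase III genes, 1 fell at 24 h against ethanol and none rose. Against 4 h, 5 of the 12 were lower at 24 h and none higher. Of 8 genes that host small nucleolar RNAs, none passed in either contrast. Myc stood at 204 and 184 CPM in ethanol, 175 and 173 at 4 h, 173 and 169 at 8 h, and 149 and 160 at 24 h, and it fell by 0.33 at 24 h (SE 0.06, edgeR adjusted p = 0.000732). Only 1 of 6 B cell markers, Cd22, reached 1 CPM, with the summed list at 37.4 and 44.3 CPM in ethanol and 272 and 278 at 24 h, while Cd79b, Ms4a1 and Pax5 were at 0 in every library. The part of these values in the decline was not tested. The ethanol group was sampled at 24 h, so at 4 and 8 h the time of exposure and the drug cannot be told apart.

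In the depletion experiment, none of the 42 genes passed the test in the 2 edited lines together against the control line, where 9.89% of all genes were called (6.21% higher and 3.68% lower). At an unadjusted p below 0.05 there were 3 of the 42, and DESeq2 called none. Same-numbered libraries deviated together in this experiment, with correlations of 0.567, 0.433 and 0.608 for the 3 pairs of lines, so they were taken as pairs. With 2 libraries per line, deviations from the line's mean mirror each other. Each correlation thus holds for both replicate numbers, and different-numbered libraries give it with the sign reversed. With the replicate number as a block in edgeR, 8 of the 42 were called, 7 up and 1 down, where 36.8% of all genes were called. The share of the 42 was thus below the background in both fits. The median log2 change without the block was 0.01, against -0.00 over all genes.

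The spread between libraries of one line exceeded the difference between lines for the RNA polymerase I gene Polr1b. Polr1b stood at 29.6 and 78.1 CPM in the control line, 62.6 and 117 in line 2-12 and 49.5 and 107 in line 2-14. In each line library 2 was the higher, and within library 1 and within library 2 both edited lines were above the control. Its log2 change was 0.59 (SE 0.47, edgeR adjusted p = 0.428) without the block and 0.63 (edgeR adjusted p = 0.00291) with it. Polr1a stood at 127 and 180 CPM in the control line, 171 and 211 in line 2-12 and 162 and 224 in line 2-14, and Utp20 at 106 and 143, 149 and 191, and 141 and 202. Both show the same order of libraries. With the block, the log2 change was 0.32 for Polr1a (edgeR adjusted p = 0.0133), 0.45 for Utp20 (edgeR adjusted p = 0.00303), 0.29 for Heatr1 (edgeR adjusted p = 0.0164) and 0.32 for Rrs1, a 60S factor that brings in the 5S particle (edgeR adjusted p = 0.0279).

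Npm1 was the gene called lower with the block (-0.37, edgeR adjusted p = 0.0219). It stood at 223 and 150 CPM in the control line, 151 and 138 in line 2-12 and 143 and 133 in line 2-14. One control library was far above the other 5. Ncl, the nucleolar RNA-binding protein nucleolin, had the same shape, at 551 and 356 CPM in the control line, 427 and 355 in line 2-12 and 413 and 343 in line 2-14, and passed in neither fit. Across the 3 lines, 25 of the 42 genes were higher in library 2 than in library 1 every time and 5 were lower every time. Rn45s, the ribosomal RNA precursor, stood at 2811 and 1067 CPM in the control line, 1659 and 959 in line 2-12 and 1552 and 966 in line 2-14, so library 1 was higher throughout. The labels' protocols name ribosomal RNA removal, so in no experiment are Rn45s counts read here as a measure of precursor made. Total counts also differed, from 2377030 in control library 1 to 5998830 in library 2 of line 2-14. The part of either in these values was not tested.

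**Figure D3:**
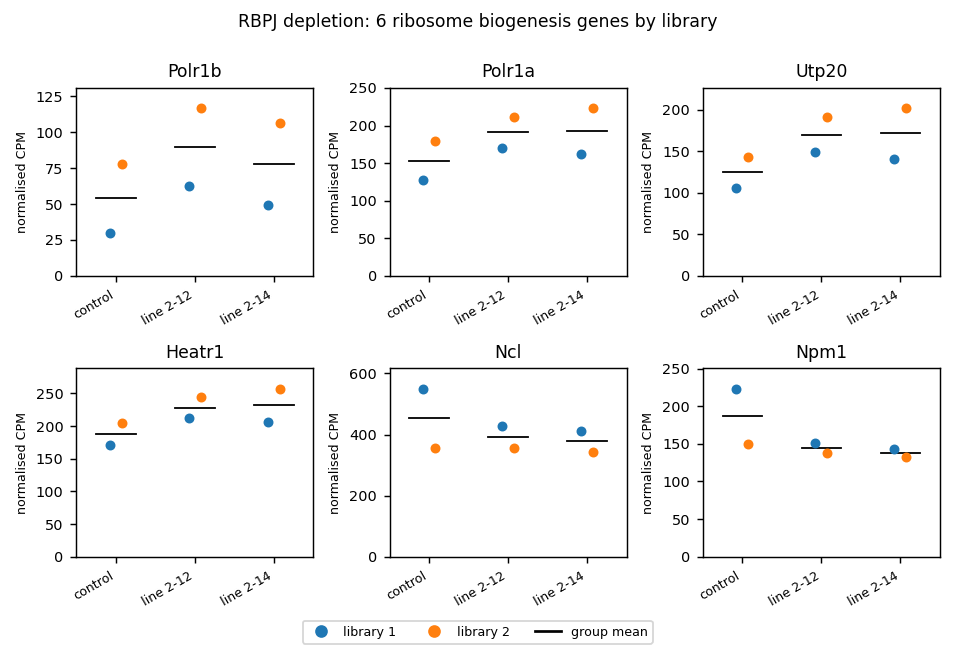
Normalised CPM (y axis, from 0) of 6 genes in the control line and the 2 edited lines (x axis), with 1 point per library coloured by replicate number and a bar at the group mean. Library 2 is above library 1 in every line for the upper 3 genes and Heatr1, and below it for Ncl and Npm1.

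For single lines, edgeR called none of the 42 in line 2-12, where 6.96% of all genes were called (4.83% higher and 2.13% lower). It called none in line 2-14, where 5.05% were called (3.4% higher and 1.65% lower), and none between the lines, where 0.484% were called (0.303% higher and 0.182% lower). At an unadjusted p below 0.05 the counts were 2, 2 and 0, and DESeq2 called none in any of the 3. With the block, 6 genes were up in line 2-12 and 6 up and 1 down in line 2-14 (31.7% and 28% of all genes called), and none differed between the lines (2.44%). Without control replicate 2, Npm1 was called down in each line. The 95% interval for the log2 change of Polr1b in both lines ran from -0.54 to 1.72. In the list of other ribosome biogenesis genes, 1 of 98 rose (Taf1c, a promoter selectivity factor of RNA polymerase I, 1.34) and 1 fell (Znrd1, an RNA polymerase I subunit, -0.66) in both lines together.

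In the KYOT2 experiment 1 of the 42 genes passed the test in 1 of 3 comparisons. None passed for GFP-KYOT2 WT against GFP, where 0.888% of all genes were called (0.807% higher and 0.0807% lower). None passed for GFP-KYOT2 WWAA against GFP, where 0.0897% were called (0.0717% higher and 0.0179% lower). In edgeR, 5 of the 42 had an unadjusted p below 0.05 in each, and DESeq2 called none in either. Every 95% interval of a log2 change lay between -0.29 and 0.35 for WT and between -0.29 and 0.34 for WWAA. Polr1b stood at 15.9, 19.0 and 16.6 CPM with GFP, 19.3, 18.7 and 19.0 with WT and 19.3, 17.9 and 18.2 with WWAA, and its groups overlapped. Ncl stood at 614.5, 715.5 and 743.8 CPM, 703.3, 710.4 and 704.3, and 729.5, 722 and 782.1 in the same order.

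WT and WWAA differed in 1 gene, Utp15, a protein of the processome's transcription-linked subcomplex, where 1.87% of all genes were called (1.26% higher and 0.601% lower). Utp15 stood at 62.6, 63.5 and 65.3 CPM with WT, 72.7, 72.5 and 75.1 with WWAA and 70.1, 72.1 and 71.7 with GFP. All 3 WT libraries lay below the other 6. Its log2 difference was -0.20 (SE 0.05, edgeR adjusted p = 0.0435), and it was no longer called in DESeq2 (adjusted p = 0.142), without the low-count filter, or without any 1 of the 6 libraries. Rn45s took 1.81% to 5.56% of the counts in this experiment and was lower at each higher replicate number in every group. Its part in these values was not tested. The KYOT2 calls come from the fit without the replicate block.

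Gamma-secretase inhibition was followed by small changes in 5 of the 42 genes, 4 up and 1 down. Of all genes, 20.7% were called (9.16% higher and 11.6% lower), so the share of the 42 was below the background. The 2 GSI libraries differed by less than the sampling noise (chi-square per gene 0.766), and no fit on their sum was run. The p-values may thus rest on technical spread. Polr1b stood at 104 and 107 CPM in DMSO and 112 and 125 with DAPT, and rose by 0.16 (SE 0.06, edgeR adjusted p = 0.0329). Utp20 stood at 168 and 167 CPM in DMSO and 184 and 185 with DAPT, and rose by 0.14 (SE 0.05, edgeR adjusted p = 0.0292). Ppan, a 60S factor, went from 120 and 111 CPM to 131 and 133, a rise of 0.20 (SE 0.05, edgeR adjusted p = 0.00601). Noc3l, a nucleolar 60S factor also tied to DNA replication, went from 84.4 and 84.9 CPM to 99.6 and 93.7, a rise of 0.19 (SE 0.06, edgeR adjusted p = 0.0214).

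Tbl3 was the gene that fell with DAPT, from 127 and 130 CPM to 112 and 118 (log2 change -0.15, SE 0.05, edgeR adjusted p = 0.0321). In each of the 5 genes the 2 groups did not overlap. The other 37 did not pass, and the median log2 change of the 42 was 0.01, against 0.00 over all genes. DESeq2 called 0 of the 42, with 0 at an unadjusted p below 0.05, where it called 5.03% of all genes. Leaving out a library gave 2 calls without DMSO replicate 1, 0 without DMSO replicate 2, 2 without GSI replicate 1 and 1 without GSI replicate 2. Of the 98 other ribosome biogenesis genes, 2 rose and 4 fell. Myc stood at 168 and 161 CPM in DMSO and 182 and 180 with DAPT, and rose by 0.14 (SE 0.05, edgeR adjusted p = 0.0300). Rn45s stood at 1009 and 934 CPM and at 1120 and 1053, and rose by 0.16 (SE 0.05, edgeR adjusted p = 0.0138). The summed myeloid markers stood at 63.0 and 57.1 CPM in DMSO and 89.0 and 84.7 with DAPT, and the summed T cell markers at 813 and 745 CPM and 786 and 768. Most of the myeloid sum was Cd68, at 60.4 and 54.7 CPM in DMSO and 85.4 and 83.2 with DAPT. Csf1r went the other way, from a mean of 0.60 CPM to 0. Within the T cell list, Cd247 fell (-0.54) and Cd2 rose (0.34). The part of these values in the result was not tested.

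In the BioNICD1 experiment, 2 libraries stood apart from the others of their group, and they are described before the comparisons. Depleted Biocontrol library 3 and depleted BioNICD1 library 1 were both higher than the rest of their group in 26 of the 42 genes and lower in 10. Ncl stood at 5490, 4825 and 8416 CPM in the depleted Biocontrol group and at 15854, 7811 and 7023 in the depleted BioNICD1 group. Nop14, a processome protein, stood at 471.5, 379.5 and 774.6 CPM and at 1161, 560 and 522. In both genes the library that stood apart was the highest of its group. The 10 that were lower in both included Polr1b, Bop1 and Tbl3. These 2 libraries were singled out after their values were seen, and each count is given with and without them. Control BioNICD1 library 1 leaned the same way, above the mean of its group's other libraries in 32 of the 42 genes with a median of 0.20 on the log2 scale, against 0.24 and 0.30 for the 2 libraries. Its deviations over all genes correlated with theirs at 0.506 and 0.525. Without it, the counts that follow were 4 for BioNICD1 in control cells, 23 for depletion with BioNICD1 and 4 for the interaction. The shares of all genes in those fits are not given here.

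**Figure D4:**
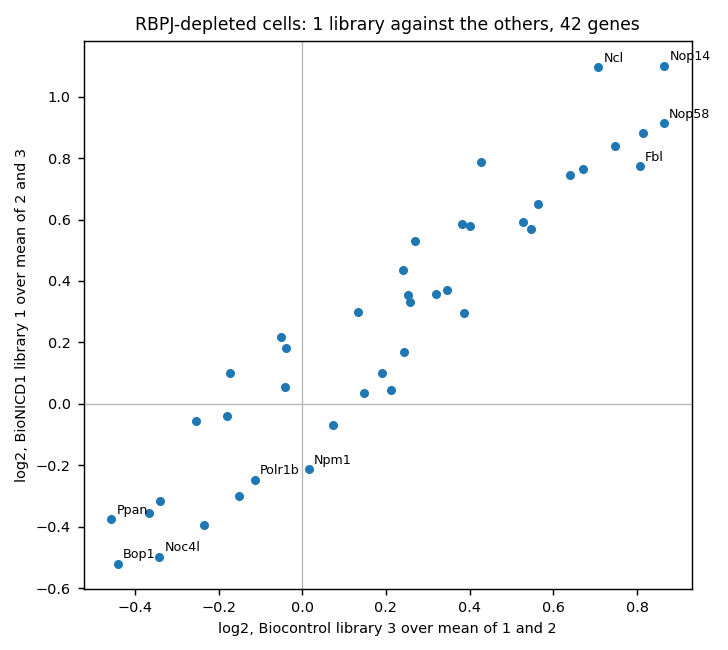
For each of the 42 genes, the log2 ratio of depleted Biocontrol library 3 to the mean of libraries 1 and 2 (x axis) against that of depleted BioNICD1 library 1 to the mean of libraries 2 and 3 (y axis), from RBPJ-depleted cells. The upper right holds 26 genes, led by Nop14 at 0.86 and 1.10, and the lower left holds 10, with Bop1 at -0.44 and -0.52.

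In control cells, BioNICD1 raised 3 of the 42 genes and lowered none, where 32.9% of all genes were called (18.7% higher and 14.2% lower). Polr1b stood at 37.1, 37.7 and 38.4 CPM with Biocontrol and 51.3, 50.4 and 49.6 with BioNICD1, and rose by 0.42 (SE 0.09, edgeR adjusted p = 0.00346). Noc4l, a processome protein, stood at 45.7, 49.7 and 53.6 CPM and 71.3, 74.5 and 72.5, and rose by 0.55 (SE 0.14, edgeR adjusted p = 0.00932). Bop1, of the PeBoW complex, stood at 79.1, 78.0 and 80.9 CPM and 113, 140 and 117, and rose by 0.64 (SE 0.16, edgeR adjusted p = 0.00802). The groups of these 3 genes did not overlap. The 3 remained called in every alternative run for them.

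The calls in control cells depended on the 2 libraries that stood apart, which belong to the depleted groups of the same fit. Without both, 12 genes were called, 4 up and 8 down, where 51.4% of all genes were called. The 8 included Nop14 (-0.64), Noc3l (-0.61), Ltv1 (-0.50) and Nop58 (-0.46). Nop14 stood at 474, 470 and 413 CPM with Biocontrol and 357, 263 and 252 with BioNICD1, and Nop58 at 1127, 1161 and 1007 CPM and 968, 725 and 718. Neither gene's groups overlapped. Myc rose in the same libraries by 0.73 (SE 0.11, edgeR adjusted p = 0.000235), from 159 to 168 CPM with Biocontrol to 257 to 294 with BioNICD1. Cd22 was again the only B cell marker of 6 to reach 1 CPM, with the list's sum at 0 to 0.494 CPM with Biocontrol and 188 to 216 with BioNICD1, and its part was not tested.

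In depleted cells, BioNICD1 moved none of the 42 genes past the threshold, where 4.14% of all genes were called (2.7% higher and 1.45% lower). The fitted change was above 0 in 40 of the 42, with a median of 0.25 against -0.01 over all genes. Of the 42, 16 had an unadjusted p below 0.05. DESeq2 called Nhp2 and Heatr1 (2 genes), where it called 6.87% of all genes. Polr1b stood at 47.9, 49.1 and 44.8 CPM with Biocontrol and 50.5, 62.8 and 57.0 with BioNICD1 (log2 change 0.27, SE 0.09, edgeR adjusted p = 0.119), with no overlap. Without depleted Biocontrol library 3, 7 genes were called up, with the share of all genes in that fit not given here. Without both libraries 9 were called up, where 11.2% of all genes were called. Those 9 included Nop58 (0.68), Dkc1 (0.57), Nop56 (0.38) and Polr1b (0.31).

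**Figure D5:**
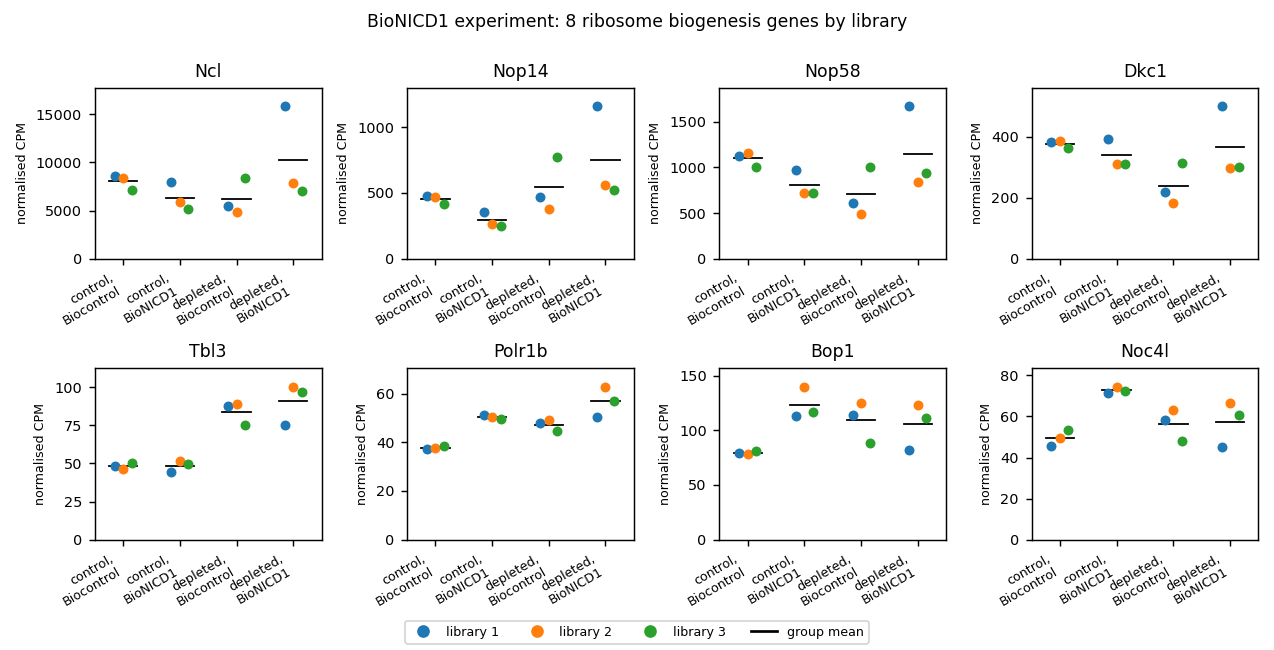
Normalised CPM (y axis, from 0) of 8 genes in the 4 groups of the BioNICD1 experiment (x axis), with 1 point per library coloured by replicate number and a bar at the group mean. For Ncl, Nop14, Nop58 and Dkc1 the highest point of each depleted group is the library that stands apart, and for Tbl3 all 6 depleted libraries lie above all 6 control libraries.

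RBPJ depletion was also compared within this experiment. With Biocontrol, 8 of the 42 genes rose and 3 fell, where 42% of all genes were called (21.7% higher and 20.3% lower). Tbl3 stood at 48.0, 46.7 and 50.4 CPM in control cells and 87.6, 89.3 and 75.1 in depleted cells, and rose by 0.80 (SE 0.12, edgeR adjusted p = 0.000169). Mrto4, a 60S factor related to the ribosomal stalk protein P0, stood at 58.2, 59.0 and 58.5 CPM and 90.7, 94.0 and 77.4, and rose by 0.58 (SE 0.09, edgeR adjusted p = 0.000184). The 2 subunits that form the catalytic core of RNA polymerase I rose: Polr1a by 0.40 (SE 0.10, edgeR adjusted p = 0.00635) and Polr1b by 0.32 (SE 0.09, edgeR adjusted p = 0.0120). Bop1 rose by 0.46 (SE 0.16, edgeR adjusted p = 0.0326) and Nob1, the nuclease that makes the final cut of 18S ribosomal RNA, by 0.39 (SE 0.14, edgeR adjusted p = 0.0366), and each lost its call in 5 of the 7 fits that left libraries out. Npm1 rose by 0.41 (SE 0.13, edgeR adjusted p = 0.0240), from 365, 381 and 436 CPM to 521, 523 and 527.

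The genes that fell with depletion were Dkc1, Wdr3 and Wdr12. Dkc1 stood at 382, 386 and 364 CPM in control cells and 218, 184 and 313 in depleted cells, and fell by 0.67 (SE 0.22, edgeR adjusted p = 0.0288). Wdr3, a processome protein, fell by 0.49 (SE 0.16, edgeR adjusted p = 0.0304) and Wdr12 by 0.40 (SE 0.12, edgeR adjusted p = 0.0208). Dkc1, Wdr3 and Wdr12 each lost the call in 5 of the 7 fits that left libraries out. Depleted library 3 was the closest of the depleted libraries to the control values of Dkc1. Without both libraries that stood apart, 11 genes rose and 9 fell, where 58.8% of all genes were called, and the 9 then included Nop58 (-0.99), Noc3l (-0.81) and Ncl (-0.64). The 11 called with them remained called, with Dkc1 at -0.91, Wdr3 at -0.63, Wdr12 at -0.51, Tbl3 at 0.87 and Mrto4 at 0.66. Leaving out any 1 library of the control Biocontrol group, or depleted Biocontrol library 1 or 2, brought the count of 11 to 5 or 6.

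With BioNICD1, depletion raised 24 of the 42 genes and lowered none, where 39.8% of all genes were called (18.5% higher and 21.4% lower). The median log2 change was 0.40, against -0.00 over all genes, and 38 of the 42 were above 0. The rises took in 1 of 3 genes in RNA polymerase I, 1 of 3 in box C/D, 1 of 3 in box H/ACA, 5 of 6 general nucleolar factors, 7 of 11 in the processome, 3 of 4 late 40S and 6 of 12 60S factors. Nop14 stood at 357, 263 and 252 CPM in control cells and 1161, 560 and 522 in depleted cells, a rise of 1.36 (SE 0.31, edgeR adjusted p = 0.00423). Ltv1, which helps pre-40S particles mature, stood at 245, 186 and 182 CPM and 541, 304 and 334, a rise of 0.94 (SE 0.23, edgeR adjusted p = 0.00694). Tbl3 stood at 44.7, 51.6 and 49.7 CPM and 75.2, 101 and 97.1, a rise of 0.90 (SE 0.12, edgeR adjusted p = 6.04e-05). None of these 3 genes' groups overlapped. Without both libraries that stood apart, the rises were 0.90 for Nop14, 0.65 for Ltv1 and 1.03 for Tbl3.

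Ddx21, an RNA helicase that binds ribosomal DNA and small nucleolar RNAs, stood at 1053, 801.8 and 836.5 CPM in control cells and 2404, 1270 and 1338 in depleted cells, a rise of 0.90 (SE 0.27, edgeR adjusted p = 0.0182). Without depleted BioNICD1 library 1 it was 0.54 (edgeR adjusted p = 0.0682), without both libraries that stood apart 0.55 (edgeR adjusted p = 0.000808), and the call was also lost without control BioNICD1 replicate 2 or 3. Npm1 rose by 0.61 (SE 0.13, edgeR adjusted p = 0.00264), Utp20 by 0.61 (SE 0.12, edgeR adjusted p = 0.00166), Heatr1 by 0.50 (SE 0.08, edgeR adjusted p = 0.000301) and Polr1a by 0.42 (SE 0.10, edgeR adjusted p = 0.00522). Without both libraries these were 0.68, 0.49, 0.49 and 0.39. Ncl did not pass (log2 change 0.70, SE 0.31, edgeR adjusted p = 0.0907), and its depleted values ran from 7023 to 15854 CPM. DESeq2 called 24 of the 42, where it called 35.3% of all genes. Without both libraries that stood apart, 25 rose and 1 fell, where 45.3% of all genes were called, and 22 of the 24 remained called. The count fell to 14 without control BioNICD1 replicate 2 and to 9 without control BioNICD1 replicate 3. Of the 98 other ribosome biogenesis genes, 27 rose and 4 fell, with Lyar (1.74) and Utp11l (1.70) the furthest up and Znrd1 (-0.91) the furthest down. Rn45s stood at 872, 869 and 796 CPM in control cells with BioNICD1 and 644, 700 and 617 in depleted cells, with no overlap. The summed myeloid markers stood at 26.6 to 28.3 CPM in control and 10.1 to 11.9 in depleted cells with BioNICD1, and at 30.8 to 34.4 and 9.39 to 13.2 with Biocontrol. Cd68 was the highest marker of that list, reaching 30.4 CPM in this experiment. The part of these values in the rises was not tested.

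Whether BioNICD1 acted differently in depleted and control cells was tested as an interaction. Of the 42 genes, 2 passed, where 22.5% of all genes did (9.17% higher and 13.3% lower). For Bop1 the response was lower in depleted cells (log2 difference -0.69, SE 0.22, edgeR adjusted p = 0.0426): BioNICD1 took it from 79.3 ± 1.47 to 123 ± 14.4 CPM in control cells and from 109 ± 18.9 to 105 ± 21.3 in depleted cells (SD, n = 3 each). For Wdr12 the response was higher in depleted cells (0.56, SE 0.17, edgeR adjusted p = 0.0360), with 131 ± 1.47 and 115 ± 9.11 CPM in control cells and 99.7 ± 14.1 and 129 ± 19.2 in depleted cells. Without both libraries that stood apart, the differences were -0.66 for Bop1 and 0.55 for Wdr12. The interaction was above 0 in 37 of the 42, with a median of 0.29 against -0.03 over all genes. Its count depended on single libraries: it was 13 without depleted Biocontrol library 3 and 0 without depleted BioNICD1 library 1. The shares of all genes in those fits are not given here. Without both libraries it was 17, 15 up and 2 down, where 40.7% of all genes were called, a share the 42 did not exceed. The 17 included Nop58 (1.14), Nop14 (0.99), Noc3l (0.97) and Ncl (0.88). It was also 0 without any 1 of control Biocontrol replicates 1 to 3, control BioNICD1 replicates 2 and 3 or depleted Biocontrol replicates 1 and 2, 4 without control BioNICD1 replicate 1, and 6 and 7 without depleted BioNICD1 replicates 2 and 3.

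Across the experiments, Tbl3 was called up in 4 and down in 3 of the 17 comparisons and Polr1b up in 3 and down in 2, the most calls of the 42 genes without the replicate block. With the block in the depletion experiment, Polr1b was called in 8 comparisons and Polr1a, Utp20, Heatr1 and Tbl3 in 7 each. In those block fits 36.8%, 31.7% and 28% of all genes were called, for both lines, line 2-12 and line 2-14. Fbl, Ncl, Nop58, Polr1c and Wdr74 were called in none, with or without the block. Of the 8 genes with an E-box in the promoter window, without the block, Utp20 was called up in 2 and down in 2, Tsr1 up in 2, Nop2 up in 1 and down in 2, Mybbp1a up in 1 and down in 1, Ltv1, Pes1 and Utp18 up in 1 each, and Wdr43 down in 1. Fbl, Npm1, Tbl3, Rrp12, Bop1 and Rrs1 had no promoter to search, so whether they hold an E-box is not known here. The comparisons within an experiment share libraries, so the counts of calls are not independent. Calls per gene were not counted over all genes, nor compared with the searched genes without an E-box, so these counts have no background.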

How the data were processed

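RNA sequencing counts of a mouse hybridoma mature T cell line were used. The authors deposited 1 table of raw counts per gene. TopHat2 2.1.1, Picard, deepTools and the build mm9 are named without their roles, per the submitters' processing notes; the counting program and its strand setting are not given in the sources used here. The kit is a stranded total RNA kit with ribosomal RNA removal "or others", per the labels' protocols. Of 65 columns, 41 match a library's label and 24 were not used; replicate 1 of the ethanol and the 24 h 4-OHT groups is not analysed here. The deposited region lists were not used here.

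Each experiment was fitted alone with edgeR 4.0.16 in R 4.3.3: TMM factors, filterByExpr, 1 mean per group, quasi-likelihood F-test, prior count 0.125, two-sided, Benjamini-Hochberg adjustment over all genes tested, threshold 0.05. Standard errors are the log2 change over the root of F. CPM were computed from the deposited counts. Between 11150 and 11808 genes were tested. At 4 and 8 h of 4-OHT, libraries 1 and 2 differed by less than the sampling noise (chi-square per gene 0.907 and 0.835, over genes with 50 or more counts in the pair) and were summed to 1 sample each. The GSI pair (0.766) and the 24 h 4-OHT pair (0.928) were as close, but no other pair of the same group exists to compare with, so both libraries were kept, with a fit on the sum of the 24 h pair as an alternative. Alternatives were DESeq2 1.42.0, other size factors, no filter, each library left out, the replicate number as a block, and each library as a sample. Same-numbered libraries deviated together only in the depletion experiment by the rule used (correlations above 0.1 in every pair); the labels do not state why. Depth was 2377030 to 14244200 counts per library, at which 3 counts are 0.211 to 1.26 CPM. The fits were tested on simulated counts.

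The 43 genes and the other lists were chosen with earlier results of these data known. Genes were named by rule: in each comparison the 4 with the largest change in each direction among those called, and Polr1a, Polr1b, Polr1c, Fbl, Nop56, Nop58, Dkc1, Ncl, Npm1, Gnl3, Utp20, Heatr1, Wdr43, Nob1, Rrp12, Bop1, Pes1 and Rrs1; of the other ribosome biogenesis genes, the 2 largest in each direction; not every value of these is printed. Tsr1 at 24 h, Nop14 and Nop58 in control cells, and the genes named without the 2 libraries that stood apart, in promoters or across experiments, were named after their values were seen.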

Additional observations from a re-analysis of the deposited data

Results flagged for a closer look

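The effect of BioNICD1 differed between RBPJ-depleted and control cells, by the interaction term, for Bop1 (log2 difference -0.69) and Wdr12 (0.56). Both values rest on groups that hold the 2 libraries that stand apart, and without those they were -0.66 and 0.55.

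Levels differed between 24 h and 4 h of 4-OHT, by the direct contrast of the 2 times, for 23 genes, all lower at 24 h. The ethanol samples are labelled 24 h, so time and drug cannot be told apart in this contrast. In RNA polymerase I the log2 differences were -0.26 for Polr1a and -0.32 for Polr1b. In the box H/ACA particle they were -0.26 for Dkc1 and -0.37 for Gar1. Among the general nucleolar factors they were -0.22 for Nolc1, -0.21 for Mybbp1a and -0.21 for Gnl3. In the small subunit processome they were -0.24 for Utp20, -0.16 for Utp15, -0.23 for Heatr1, -0.14 for Wdr43, -0.38 for Tbl3, -0.27 for Pwp2, -0.21 for Nop14 and -0.20 for Noc4l. Of the late 40S factors, Rrp12 differed by -0.37 and Nob1 by -0.28. Of the 60S factors, Wdr12 differed by -0.21, Rrs1 by -0.25, Ppan by -0.22, Noc3l by -0.22, Nop2 by -0.26 and Rrp1b by -0.21.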

How the results depend on the processing

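Counts of the 42 genes called are given. Other size factors moved none by over 1.5 times. Without the low-count filter the counts were 3 for both edited lines, 2 for line 2-12, 1 for line 2-14 and 0 for KYOT2 WT against WWAA. The shares of all genes without that filter are not given here, so these counts have no background. DESeq2 gave 0 at 4 h, 1 at 8 h, 1 at 24 h and 8 for 24 h against 4 h. It gave 0 for WT against WWAA, 0 for GSI, 2 for BioNICD1 in depleted cells and 4 for the interaction. For these it called 1.49%, 5.03%, 6.87% and 23.9% of all genes, in the same order. With each library as a sample, 6 were called at 8 h, with the share of all genes in that fit not given here. With the 2 libraries at 24 h summed to 1 sample, an alternative chosen after seeing the data, 4 were called at 24 h and 14 for 24 h against 4 h.

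With the replicate number as a block, 8 were called in both edited lines, 6 in line 2-12 and 7 in line 2-14, where the numbers pair the libraries. In the other experiments the rule for pairing was not met, and the labels do not say what same-numbered libraries share. There the block gave 8 at 8 h (with each library as a sample) and 4 for the interaction, with the shares of all genes not given here. It moved no other count by over 1.5 times. For KYOT2, different-number correlations ran from -0.285 to 0.161, below the highest same-number ones. Same-number correlations were 0.0349 to 0.408 for KYOT2, -0.0112 to 0.169 for NICD1-ER, 0.0268 for GSI and -0.449 to 0.549 for BioNICD1.

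Leaving out 1 library at a time gave 0 to 1 for both edited lines, 0 to 1 for line 2-12, 0 to 1 for line 2-14, 0 to 0 between the lines, 0 to 2 at 4 h, 1 to 3 at 8 h, 1 to 9 at 24 h, 10 to 19 for 24 h against 4 h, 0 for all 3 KYOT2 comparisons, 0 to 2 for GSI, 3 to 4 for BioNICD1 in control cells, 0 to 7 in depleted cells, 5 to 14 for depletion with Biocontrol, 9 to 25 for depletion with BioNICD1 and 0 to 13 for the interaction. A group left with 1 sample was assumed to vary like the others. The shares of all genes called in the fits without 1 library are not given here. Without both depleted libraries that stood apart, an alternative chosen after seeing the data, the counts were 12 in control cells, with more down than up, 9 in depleted cells, 20 for depletion with Biocontrol and 17 for the interaction. The cause was not tested.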
